A study of Homo sapiens with 12 samples.

Results

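The 49 genes described here are replication and S-phase genes, chosen as a list of symbols whose Ensembl identifiers were matched to rows of the deposited count table. They are 49 of the 58884 genes in that table, and each symbol matched 1 row. They fall into 8 roles, which are origin licensing (10 genes), helicase activation (6), the sliding clamp and its loaders (6), polymerases and primase (8), strand processing and checkpoint at the fork (4), deoxynucleotide synthesis (4), cyclin E and the E2F factors (5), and chromatin assembly and histone supply (6). RNA was sequenced from U2932 and TMD8, cell lines of diffuse large B-cell lymphoma (DLBCL) that the labels give as wild type. Each line was treated for 4 h with 20 µg/mL of rituximab (R) or ofatumumab (OF), both antibodies against CD20 on the B-cell surface, or with a human IgG1 isotype control. Each of the 6 groups had 2 libraries, because each line had been divided and grown for a week as 2 cultures before treatment. Each line is 1 lineage of cells, so the error between cultures says nothing about other DLBCL lines.

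Replication starts at origins. The origin recognition complex, CDC6 and CDT1 load the MCM2 to MCM7 ring onto DNA in G1, and CDC45 and the GINS complex turn that ring into the moving helicase at the start of S phase. Primase and the polymerases then copy the strands on the PCNA clamp, which RFC loads, while ribonucleotide reductase and thymidylate synthase supply the building blocks. Cyclin E and the E2F factors drive the change from G1 to S, and many replication genes carry E2F sites close to their start. All 49 genes passed the filter on low counts in every fit, so no gene entered only through a group in which it was high.

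The 300 bases around the start sites (250 before and 50 after, RefSeq, GRCh38.p14) were read for 41 of the 49 genes. They were searched on both strands for 4 E2F-like motifs, TTTGGCGC, TTTCCCGC, TTTGCCGC and TTTCGCGC. At least 1 promoter of 22 of the 41 genes held a match (53.7%). Over all genes with a promoter in the same RefSeq set, 1090 of 27305 did (3.99%). So did 15 of 40 other replication genes (37.5%) and 2 of 25 G2 and mitosis genes (8%). A match describes the letters and does not show that a factor binds. The stretches from 180 bases before to 20 after the start are shown, 5′ to 3′, for the genes with RefSeq promoters that rose (TYMS, GINS3) or fell (PRIM1, CASP8AP2) by most in U2932 with R, for MCM2, which also fell, and for MCM6, which had the most matches, with matches in capitals.
TYMS: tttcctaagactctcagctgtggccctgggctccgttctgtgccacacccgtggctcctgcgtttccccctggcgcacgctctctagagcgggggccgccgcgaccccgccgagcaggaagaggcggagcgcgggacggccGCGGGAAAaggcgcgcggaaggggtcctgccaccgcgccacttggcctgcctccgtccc
GINS3: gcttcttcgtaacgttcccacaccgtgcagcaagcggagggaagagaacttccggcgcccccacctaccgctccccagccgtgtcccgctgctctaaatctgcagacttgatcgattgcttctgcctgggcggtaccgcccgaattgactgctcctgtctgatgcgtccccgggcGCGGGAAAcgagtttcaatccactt
PRIM1: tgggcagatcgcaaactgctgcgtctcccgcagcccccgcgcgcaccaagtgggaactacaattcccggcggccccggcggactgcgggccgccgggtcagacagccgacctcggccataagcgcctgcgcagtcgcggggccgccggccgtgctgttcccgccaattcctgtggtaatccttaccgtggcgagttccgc
CASP8AP2: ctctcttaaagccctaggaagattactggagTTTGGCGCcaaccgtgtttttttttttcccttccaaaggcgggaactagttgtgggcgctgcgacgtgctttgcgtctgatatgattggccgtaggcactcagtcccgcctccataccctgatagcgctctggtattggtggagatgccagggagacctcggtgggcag
MCM2: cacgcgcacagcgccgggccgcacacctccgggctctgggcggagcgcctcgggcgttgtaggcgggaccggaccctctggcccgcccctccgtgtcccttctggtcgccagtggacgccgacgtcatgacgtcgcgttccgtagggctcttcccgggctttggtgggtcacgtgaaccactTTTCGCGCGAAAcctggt
MCM6: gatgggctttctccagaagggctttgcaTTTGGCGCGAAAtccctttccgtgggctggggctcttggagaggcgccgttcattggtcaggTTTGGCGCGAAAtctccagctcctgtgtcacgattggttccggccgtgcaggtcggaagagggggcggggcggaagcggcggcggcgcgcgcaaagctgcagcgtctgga

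They lie at chr18:657473-657672 (TYMS, plus strand), chr16:58392291-58392490 (GINS3, plus strand), chr12:56752304-56752503 (PRIM1, minus strand), chr6:89829700-89829899 (CASP8AP2, plus strand), chr3:127598231-127598430 (MCM2, plus strand) and chr2:135876424-135876623 (MCM6, minus strand). The match began 39 bases before the start in TYMS, 5 before in GINS3 and 149 before in CASP8AP2, and PRIM1 had 0 matches. MCM2 had 2 matches that overlap, the first beginning at base 3 of the transcript. MCM6 had 4, as overlapping pairs that begin 152 and 90 bases before the start.

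The libraries held 15440226 to 27110612 counts, of which 0.62% to 1.01% fell on the 49 genes. All 10 B-cell markers were above 10 CPM (counts scaled to a common library size by the trimmed mean of M-values, TMM) in every library. Of 12 markers of other cells, 10 stayed under 2 CPM. The other 2 were EPCAM, at 28.6 to 37.3 CPM in U2932, and COL1A1, at up to 5.22 CPM in TMD8. Their part in the results was not tested. Replicate 2 of isotype and replicate 2 of OF in TMD8 stood apart from the other TMD8 libraries. In this pair 7.05% and 7.78% of counts came from ribosomal protein genes, while the remaining TMD8 libraries had 10.9% to 11.8%. In U2932 the same share was 4.90% and 5.24% under isotype and 6.69% to 7.27% with the antibodies, and its part in the results was not tested. Results in TMD8 are therefore given with and without these 2 libraries.

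Under isotype, per kilobase of transcript, PCNA had the highest level of the 49 genes in both lines, at 472 CPM per kb in U2932 and 424 in TMD8. PCNA is the clamp that holds polymerases on DNA. In U2932 it was followed by MCM7 (238), SLBP (192), MCM4 (181) and RFC4 (179), and in TMD8 by MCM5 (183), MCM7 (151), MCM3 (137) and MCM4 (133). The lowest were E2F2 (3.61 in U2932 and 1.12 in TMD8) and POLA2 (4.13 and 2.91), a transcription factor and a subunit of the polymerase alpha complex. POLA2 shares 35.1% of its exon bases with an unnamed gene on its strand, so its reads could be split. SLBP, which binds the end of histone messages, and RFC4, a clamp loader subunit, were thus near the top in U2932 and at 55.0 and 55.2 CPM per kb in TMD8.

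In these bulk libraries, fewer cells in S phase and less RNA per cell cannot be told apart. The first question was how R and OF changed these genes in U2932 against the isotype control. With R, 5 genes rose and 10 fell, and with OF, 7 rose and 12 fell, at an adjusted p under 0.10 in edgeR's quasi-likelihood test. The shares that rose were 10.2% with R and 14.3% with OF, and over all 14635 genes tested they were 16.8% and 18.7%. The shares that fell were 20.4% and 24.5%, against 17.4% and 17.8% over all genes. The genes as a group therefore stayed near the background, with a median log2 fold change of -0.05 with either antibody, against -0.02 with R and 0.01 with OF over all genes. R and OF are compared with the same 2 isotype libraries, so their values are set side by side and are not independent.

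TYMS, thymidylate synthase, which makes the thymidine nucleotide, was the member with the largest rise in U2932. Its level was 184 and 184 CPM in the 2 isotype libraries, 297 and 320 with R, and 311 and 306 with OF. All 4 anti-CD20 libraries were above both isotype libraries. The log2 fold change (± standard error) was 0.75 ± 0.08 with R (1.68-fold, adjusted p = 2.32e-07), and OF gave 0.75 ± 0.08 (adjusted p = 2.6e-07). TYMS lies at chr18:657604-673578 (GRCh38), and 39.1% of its exon bases overlap exons of ENOSF1 on the opposite strand. ENOSF1 was not called, at -0.11 ± 0.09 with R and -0.12 ± 0.09 with OF. Use of the strand in counting is not given in the sources used here.

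The other deoxynucleotide genes differed from TYMS. RRM2, the regulated subunit of ribonucleotide reductase, was at 560 and 573 CPM under isotype, 469 and 481 with R, and 486 and 467 with OF. It fell by 0.25 on the log2 scale with either antibody (adjusted p = 0.0166 with R and 0.0196 with OF), and no anti-CD20 library reached the isotype level, but the call with OF was lost without either OF library (-0.27 and -0.22). RRM1, its partner subunit, was at -0.04 ± 0.09 and -0.08 ± 0.09. TK1, the salvage thymidine kinase, was at 160 and 132 CPM under isotype and at 167.5 to 175 CPM in the 4 anti-CD20 libraries. TK1 rose with OF (0.25 ± 0.09, adjusted p = 0.0438), but was not called without replicate 2 of isotype (0.12) or without either OF library (0.27 and 0.23). TK1, with 62.8% G and C in its longest transcript, was also not called with OF after a correction for GC content. With R it was at 0.21 ± 0.09 and was called only by some alternatives, among them the fit with the culture as a replicate block. Part of RRM2 (20.2% of exon bases) also overlaps an unnamed gene on its strand, and TYMS and RRM2 have 2 and 3 annotated pseudogenes, so reads could be split.

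In origin licensing, 2 of 10 genes fell with each antibody, MCM2 and MCM7, subunits of the helicase ring. MCM2 was at 562 and 497 CPM under isotype, 440 and 409 with R, and 450 and 473 with OF. Its log2 fold change was -0.32 ± 0.08 with R (adjusted p = 0.00595), and OF gave -0.19 ± 0.08 (adjusted p = 0.0867). MCM7 was at 765 and 703 CPM under isotype and at 609 to 659 CPM in the 4 anti-CD20 libraries, a change of -0.26 ± 0.08 and -0.20 ± 0.08. The calls of MCM2 and MCM7 with OF were lost without either OF library and without replicate 1 of isotype, where MCM2 was at -0.11 and MCM7 at -0.15. The other 4 subunits, MCM3 to MCM6, were between -0.17 and 0.03, with MCM5 at -0.07 ± 0.09 with R and 0.03 ± 0.09 with OF. Subunits of the same ring thus ranged from a called fall to values within 1 standard error of 0. CDC6, the loading factor, was at -0.07 ± 0.09 with both. CDT1, which works with CDC6, was at -0.22 ± 0.10 with R and 0.04 ± 0.10 with OF. CDT1 passed with R once the culture was a block (-0.21, adjusted p = 0.0766, and 0.00387 to 0.605 over its 15 alternative fits).

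Among the genes that activate the helicase, GINS3 rose and CDC45 fell with both antibodies. GINS3, 1 of the 4 GINS subunits, was at 35.0 and 40.5 CPM under isotype, 50.8 and 56.0 with R, and 48.4 and 49.1 with OF. Its change was 0.50 ± 0.10 with R (1.41-fold, adjusted p = 0.000618), and OF gave 0.37 ± 0.10 (adjusted p = 0.00756). GINS1, GINS2 and GINS4 were between -0.03 and 0.11 and none was called, so 1 subunit of the complex moved and 3 did not pass. CDC45, the factor that joins GINS on the ring, was at 124 and 135 CPM under isotype, 102 and 104 with R, and 91.5 and 98.8 with OF. It fell by 0.33 on the log2 scale with R (adjusted p = 0.00743), while OF gave -0.44 (adjusted p = 0.000676). Both genes kept separate groups, with no anti-CD20 library inside the isotype range.

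Primase gave the largest fall. PRIM1, its catalytic subunit, was at 37.1 and 42.0 CPM under isotype, 25.0 and 25.7 with R, and 23.9 and 25.7 with OF. It fell by 0.64 ± 0.11 on the log2 scale with R (1.56-fold lower, adjusted p = 6.23e-05), and OF gave -0.67 ± 0.11 (adjusted p = 4.08e-05). PRIM1 lies at chr12:56731596-56752373 and shares 14.9% of its exon bases with an unnamed gene on its strand. PRIM2, the other subunit of primase, was at 0.03 ± 0.10 and -0.09 ± 0.10. POLA1, the catalytic subunit of polymerase alpha, was at 181 and 225 CPM under isotype, 171 and 167 with R, and 160 and 165 with OF. It fell by 0.27 with R and by 0.32 with OF, but without replicate 2 of isotype it was at -0.11 and -0.16 and was not called with either antibody. The call of POLA1 was also lost with R without replicate 2 of R (-0.24) and with OF without replicate 1 of OF (-0.30). POLD1, the catalytic subunit of polymerase delta, was at 138 and 108 CPM under isotype and at 153 and 149 with OF, and it rose with OF (0.30 ± 0.10, adjusted p = 0.0296). POLD1 is one of the genes richest in G and C (65.0% of its longest transcript), and with a GC correction it was not called. Nor was POLD1 called without replicate 2 of isotype (0.14) or without either OF library (0.28 and 0.31).

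Of the clamp and its loaders, RFC2 and RFC3 fell with both antibodies and RFC4 with OF. RFC2 was at 120 and 121 CPM under isotype and at 92.7 to 106 CPM in the 4 anti-CD20 libraries. RFC3 was at 84.1 and 92.4 CPM under isotype and at 68.9 to 76.8 CPM with the antibodies. Their log2 fold changes lay between -0.27 and -0.35. RFC2 was not called with R without replicate 1 of R (-0.18) nor with OF without replicate 2 of OF (-0.23). RFC3 lost its call with R without replicate 1 of R (-0.20) and without replicate 2 of isotype (-0.21), and RFC4 lost its own without either OF library (-0.19 and -0.21) or replicate 2 of isotype (-0.14). PCNA itself was at 616 and 668 CPM under isotype, 620 and 708 with R, and 626 and 617 with OF, a change of 0.05 ± 0.08 and -0.04 ± 0.08.

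At the fork, RPA2, a subunit of the protein that coats single-stranded DNA, rose from 73.0 and 76.0 CPM under isotype to 109 and 119 with R and 106 and 111 with OF. Its change was 0.61 ± 0.09 with R (1.53-fold, adjusted p = 1.47e-05), and OF gave 0.54 ± 0.09 (adjusted p = 7.02e-05). RPA2 lies at chr1:27891524-27914746 and has 3 annotated pseudogenes. CLSPN, a checkpoint adaptor, was at -0.24 ± 0.09 and -0.23 ± 0.09 and was called in both, but without replicate 2 of isotype both values were -0.10 and neither was called. The calls of CLSPN were also lost without either OF library and, with R, without replicate 2 of R (-0.19). FEN1 and LIG1, which process and join the lagging strand, were between -0.11 and 0.19 and were not called, although LIG1 passed with OF under the replicate block (0.20, adjusted p = 0.0756). FEN1 passed as lower with OF in some alternative fits, among them the GC correction and library size only.

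Cyclin E2 rose in U2932 and cyclin E1 did not pass. CCNE2 was at 77.1 and 89.7 CPM under isotype, 99.6 and 110 with R, and 97.2 and 103 with OF, with a change of 0.33 ± 0.10 (adjusted p = 0.0111) and 0.27 ± 0.10 (adjusted p = 0.0373). The call of CCNE2 with R was lost without replicate 2 of R (0.26). With OF it was lost without either OF library (0.31 and 0.22) or replicate 1 of isotype (0.15). CCNE2 shares 37.0% of its exon bases with INTS8 on the opposite strand. INTS8 was at 0.05 ± 0.10 with R and -0.01 ± 0.10 with OF. CCNE1 was at 35.3 and 35.6 CPM under isotype and at 35.8 to 38.1 CPM in the anti-CD20 libraries, a change of 0.08 ± 0.10 and 0.07 ± 0.10. E2F1, an activating E2F, was at -0.06 ± 0.10 and 0.06 ± 0.10, and E2F8, a repressing one, was at -0.19 ± 0.11 with R and fell with OF (-0.32 ± 0.11), while the difference between the antibodies was not called. Without replicate 1 of OF or replicate 2 of isotype E2F8 was at -0.25 and -0.18 with OF and was not called.

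CASP8AP2 and NPAT are needed for the expression of histone genes. CASP8AP2 was at 107 and 144 CPM under isotype, 88.4 and 90.0 with R, and 82.9 and 88.4 with OF. It fell by 0.49 ± 0.11 on the log2 scale with R (adjusted p = 0.00105), and OF gave -0.54 ± 0.11 (adjusted p = 0.000398). Its 2 isotype libraries were far apart, and both lay above all 4 anti-CD20 libraries. Without replicate 2 of isotype CASP8AP2 was at -0.27 with R (adjusted p = 0.0291), and OF gave -0.32 (adjusted p = 0.0109), so the size of its fall rested on that library. NPAT was at -0.06 ± 0.10 and -0.15 ± 0.10 and was not called. SLBP was at 372 and 385 CPM under isotype and at 325 to 367 CPM with the antibodies, a change of -0.13 ± 0.08 and -0.17 ± 0.08, and passed with OF in 6 of 15 alternative fits, the replicate block among them (adjusted p = 0.0978 with the block, and 0.0196 to 0.654 over its 15 alternative fits). UHRF1, which binds half-methylated DNA behind the fork, was at 164 and 148 CPM under isotype, 193 and 168 with R, and 200.1 and 205 with OF, and rose by 0.21 ± 0.09 with R (adjusted p = 0.0996, called in 7 of 15 alternative fits). Without replicate 1 of R the value of UHRF1 was 0.10, and without replicate 2 of isotype it was 0.13, and neither was called. With OF the rise was 0.38 ± 0.09 (adjusted p = 0.00272).

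**Figure D1:**
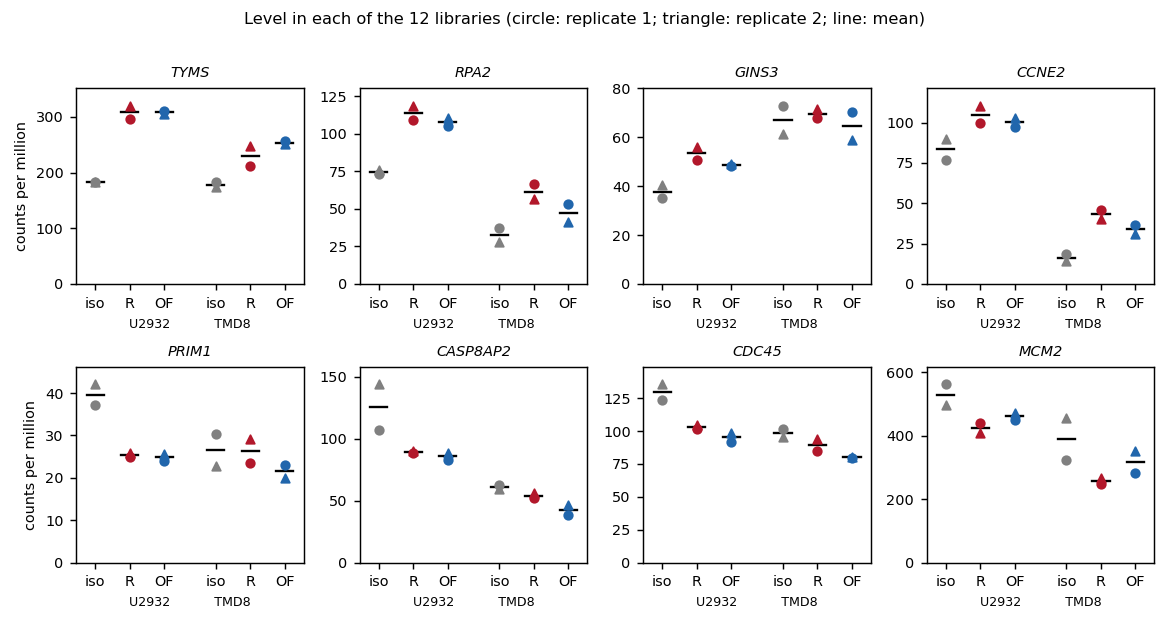
Level of 8 genes in each of the 12 libraries, as CPM on axes that start at 0, for isotype (iso), R and OF in U2932 (left) and TMD8 (right). Circles are replicate 1, triangles replicate 2 and lines the mean of 2 libraries, and in U2932 the anti-CD20 libraries lie above isotype for TYMS, RPA2, GINS3 and CCNE2 and below it for PRIM1, CASP8AP2, CDC45 and MCM2.

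Most changes were under 1.5-fold. Only 3 called members changed by at least 1.5-fold with R (TYMS, RPA2 and PRIM1) and 2 with OF (TYMS and PRIM1). When all 12 libraries shared 1 estimate of the spread, the calls fell to 4 with R (TYMS, RPA2, GINS3 and PRIM1) and 5 with OF (TYMS, RPA2, PRIM1, CDC45 and CASP8AP2). Without replicate 1 of OF the calls with OF fell from 19 to 9, and without its replicate 2 to 10. Scaling by library size alone put the median of all genes at -0.12 with R and -0.07 with OF, and the split of members was then 4 higher and 18 lower with each antibody. With a GC correction it was 7 higher and 11 lower with R and 5 higher and 14 lower with OF. The shares over all genes are not given for these splits. TYMS, RPA2 and PRIM1 were called with both antibodies in each of the 15 alternative fits, with TYMS at 0.65 to 0.80 with R.

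The 48 other replication genes, a list of further pathway members, were counted in the same way in U2932. With R, 8 rose and 12 fell, and with OF, 9 rose and 17 fell, with medians of -0.03 and -0.06. The 3 with the smallest adjusted p with R were USP1, a deubiquitinase of PCNA (-0.83 ± 0.09), EXO1, an exonuclease (0.77 ± 0.10), and E2F6, a repressing E2F (0.84 ± 0.11). Of 30 G2 and mitosis genes, 2 rose and 11 fell with R, and 3 rose and 9 fell with OF, with medians of -0.12 and -0.14.

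**Figure D2:**
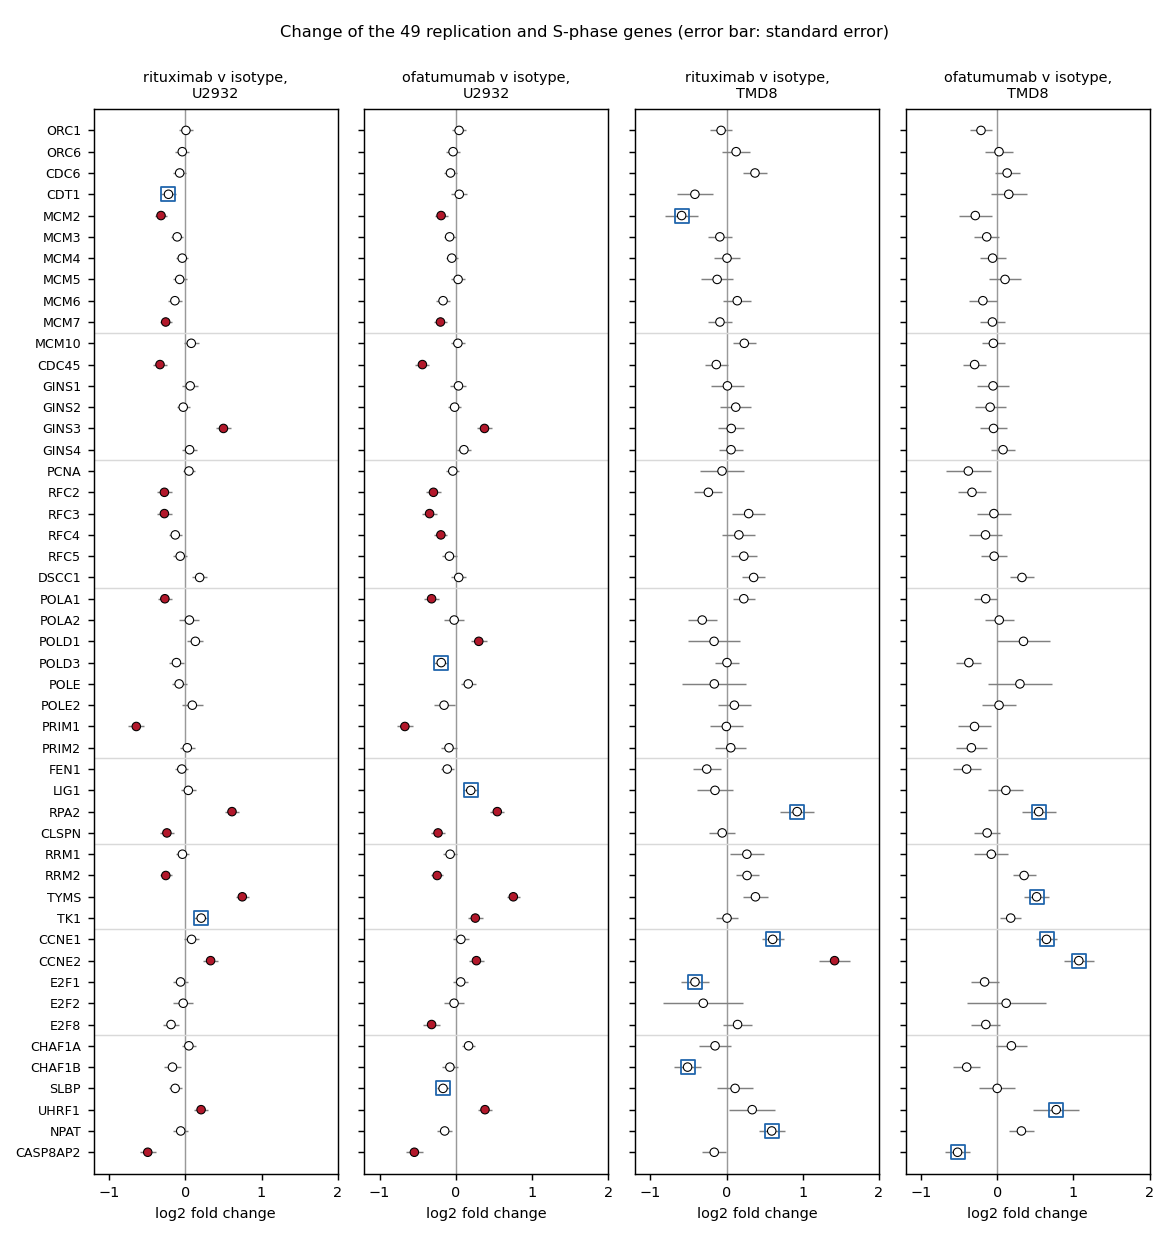
Log2 fold change of the 49 genes against isotype (x axis; error bars are standard errors), by role from origin licensing at the top to histone supply at the bottom, for R and OF in U2932 and TMD8. Filled points passed an adjusted p of 0.10, open points did not, and squares mark those that passed only with the culture as a block; 15, 19, 1 and 0 points are filled from left to right.

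The second question was the same in TMD8. Here 1 gene passed with R, CCNE2, and 0 passed with OF in edgeR's test, against 0.647% and 0.815% of the 14227 genes tested in either direction. At an unadjusted p under 0.05 there were 6 members with each antibody. DESeq2 called 3 with R (CCNE2, RPA2 and CCNE1) and 2 with OF (CCNE2 and CCNE1). The shares over all genes are not given for these counts. The standard errors were wider than in U2932, with a median over the 49 genes of 0.18 in TMD8 and 0.09 in U2932. CCNE2 was at 18.3 and 14.2 CPM under isotype, 45.8 and 40.4 with R, and 36.7 and 31.2 with OF. Each anti-CD20 library was above both isotype libraries. The log2 fold change was 1.42 ± 0.20 with R (2.67-fold, adjusted p = 0.0738), and OF gave 1.07 ± 0.20 (adjusted p = 0.108). Without replicate 1 of R, replicate 2 of R or replicate 2 of isotype the call was lost, with changes of 1.32, 1.52 and 1.24 and adjusted p-values of 0.894, 0.647 and 0.103, and over its 16 alternative fits the adjusted p ran from 2.91e-13 to 0.894. INTS8, which shares bases with CCNE2, was at 0.31 ± 0.18 with R and 0.07 ± 0.18 with OF and was not called.

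Libraries of 1 number and line were taken to come from the same culture. A fit with the culture as a replicate block called 7 members with R and 6 with OF. With R, CCNE2, RPA2, CCNE1 and NPAT rose (8.16% of members, against 8.99% of all genes) and MCM2, E2F1 and CHAF1B fell (6.12%, against 8.73%). With OF, CCNE2, CCNE1, RPA2, UHRF1 and TYMS rose (10.2%, against 7.45%) and CASP8AP2 fell (2.04%, against 6.87%). These shares lay within a few percentage points of those of all genes. For CCNE2 the block left the change at 1.42 ± 0.13 with R (adjusted p = 0.00185), and OF gave 1.07 ± 0.13 (adjusted p = 0.00564, with 6.91e-07 to 0.384 over its 16 alternative fits). The other blocked values with R were 0.60 for CCNE1, 0.59 for NPAT, -0.57 for MCM2, -0.51 for CHAF1B and -0.42 for E2F1. With OF they were 0.79 for UHRF1, 0.65 for CCNE1, 0.52 for TYMS and -0.52 for CASP8AP2.

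RPA2 was at 37.0 and 28.0 CPM under isotype, 66.5 and 56.3 with R, and 53.1 and 41.2 with OF. Its change was 0.93 ± 0.22 with R and 0.54 ± 0.22 with OF without the block (adjusted p = 0.143 and 0.338), and 0.93 ± 0.13 and 0.55 ± 0.13 with it (adjusted p = 0.00548 and 0.0352). Over the 16 alternative fits the adjusted p ran from 5.53e-06 to 0.894 with R and from 0.0108 to 0.597 with OF. CCNE1 was at 31.2 and 32.0 CPM under isotype, 46.2 and 49.3 with R, and 49.1 and 49.3 with OF. Its change was 0.60 ± 0.14 and 0.65 ± 0.14 without the block, and its libraries did not overlap with isotype. TYMS was at 182 and 174 CPM under isotype, 213 and 248 with R, and 256 and 251 with OF, a change of 0.38 ± 0.16 and 0.52 ± 0.16. All 4 anti-CD20 libraries were again above both isotype libraries. UHRF1 was at 85.9 and 150 CPM under isotype, 142 and 154 with R, and 160 and 242 with OF, so its groups overlapped with R and not with OF. NPAT was at 24.2 and 22.4 CPM under isotype, 37.9 and 32.0 with R, and 27.3 and 30.6 with OF.

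MCM2 was at 325 and 455 CPM under isotype, 249 and 266 with R, and 284 and 352 with OF. Its change was -0.59 ± 0.21 with R and -0.29 ± 0.21 with OF. CASP8AP2 was at 62.2 and 59.0 CPM under isotype, 52.0 and 55.8 with R, and 38.0 and 46.2 with OF, a change of -0.16 ± 0.16 and -0.52 ± 0.16. E2F1 was at 53.6 and 62.2 CPM under isotype, 38.6 and 47.8 with R, and 46.2 and 56.6 with OF, and its change was -0.41 ± 0.18 and -0.17 ± 0.18. MCM2, CASP8AP2 and E2F1 had no R library inside the isotype range, and in the OF libraries MCM2 and E2F1 overlapped it. The other genes followed in every comparison were not called with or without the block. With R and OF, MCM5 was at -0.12 ± 0.21 and 0.10 ± 0.21, CDC6 at 0.37 ± 0.16 and 0.13 ± 0.16, and CDT1 at -0.41 ± 0.23 and 0.15 ± 0.23. CDC45 was at -0.13 ± 0.15 and -0.30 ± 0.15, PCNA at -0.06 ± 0.29 and -0.38 ± 0.29, RRM2 at 0.27 ± 0.15 and 0.35 ± 0.15, and SLBP at 0.11 ± 0.24 and 0.00 ± 0.24. PRIM1, which fell in U2932, was at 30.3 and 22.8 CPM under isotype, 23.5 and 29.2 with R, and 22.9 and 20.1 with OF, and GINS3 was at 0.06 ± 0.17 and -0.05 ± 0.17.

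Leaving out the 2 libraries that stood apart, chosen after the data were seen, left 1 isotype and 1 OF library in TMD8, which were taken to vary like the R pair. The fit then called 15 members with R and 17 with OF, against 30.3% and 23.4% of all genes. CCNE2 (1.23 and 0.99), UHRF1 (0.78 and 0.89), RPA2 (0.72 and 0.51), CCNE1 (0.61 and 0.64) and TYMS (0.33 and 0.48) were higher with both antibodies. POLE (0.48 and 0.36) and POLD1 (0.35 and 0.46) were also higher with both, and POLE and POLD1 had been at -0.16 with R in the fit with these libraries. NPAT (0.52) and E2F8 (0.33) were higher with R, and RRM2 (0.32) with OF. PCNA (-0.37 and -0.45), RFC2 (-0.41 and -0.39) and FEN1 (-0.35 and -0.35) were lower with both. CHAF1B (-0.38), MCM2 (-0.34) and E2F1 (-0.32) were lower with R. With OF the lower genes included CASP8AP2 (-0.72), PRIM1 (-0.41), POLD3 (-0.41), PRIM2 (-0.39), CDC45 (-0.37) and CLSPN (-0.34). Which members passed in TMD8 thus depended on the libraries kept and on the fit. The call of CCNE2 with R in the main fit was also lost without either R library. The replicate block called further members with all 6 libraries kept.

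Differences between replicates moved with base composition in several groups. Replicate 2 minus replicate 1 of isotype in TMD8 ranged from -0.67 to 1.20 (log2 CPM) over the 49 genes, and in OF from -0.54 to 1.29, against -0.26 to 0.45 in R. In U2932 the ranges were -0.34 to 0.42 in isotype, -0.33 to 0.22 in R and -0.23 to 0.19 in OF. POLE was at 79.3 CPM in replicate 1 and 171 in replicate 2 of TMD8 isotype, POLD1 at 196 and 372, and PCNA at 707 and 444. POLE and POLD1 have 56.4% and 65.0% G and C and PCNA 45.3%. Across the 49 genes of TMD8, the difference between replicates and the GC content correlated at r = 0.68 (Spearman's rho 0.68) in isotype, 0.53 (0.51) in OF and 0.44 (0.45) in R. In U2932 r was -0.87 (rho -0.83) in isotype, -0.50 (-0.50) in R and -0.07 (0.03) in OF. Over 16156 genes r was weaker, at 0.33 in isotype, 0.23 in OF and 0.20 in R of TMD8. In U2932 r over those genes was -0.35 in isotype, -0.11 in R and -0.02 in OF. The 49 points of each value share the same 2 libraries, and the part of base composition in the results was not tested beyond the GC correction, with which 3 members rose with R in TMD8 and 2 with OF.

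**Figure D3:**
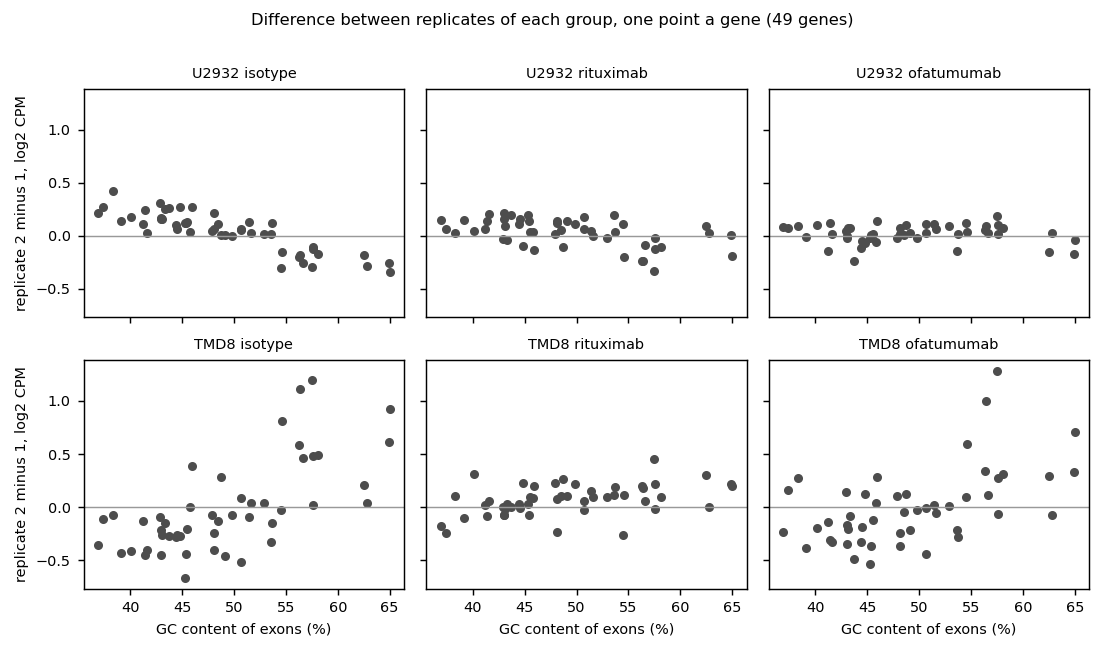
Difference between the replicates of each group (y axis, replicate 2 minus replicate 1, log2 CPM) against the GC content of the longest transcript (x axis, percent), 1 point for each of the 49 genes. In TMD8 isotype and OF the points rise to the right and reach 1.20 and 1.29, and in U2932 isotype they fall to the right within -0.34 to 0.42.

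The third question was whether R and OF differed from each other. In edgeR's test 0 members passed in U2932 and 0 in TMD8, against 0.00683% (1 gene) and 0% of all genes. At an unadjusted p under 0.05 there were 2 members in each line (CDT1 and POLE in U2932, CDT1 and POLA1 in TMD8). The share over all genes at that p is not given. DESeq2 called 0 members in both lines. CDT1 was lower with R than with OF in both lines, at -0.26 ± 0.10 in U2932 and -0.57 ± 0.23 in TMD8 (adjusted p = 0.910 and 0.733). CDT1 was at 61.8 and 62.0 CPM with R and 78.6 and 69.6 with OF in U2932, and at 44.0 and 51.1 with R and 62.5 and 78.6 with OF in TMD8. The differences over the 49 genes ran from -0.26 to 0.25 in U2932 and from -0.57 to 0.39 in TMD8, and a p that misses the threshold does not show that the antibodies act alike. Without replicate 2 of OF and of isotype in TMD8, where the remaining OF library was taken to vary like the R pair, 4 members were called. CDT1 was then lower with R than with OF (-0.39 ± 0.13, adjusted p = 0.0885), and CASP8AP2 (0.50), POLA1 (0.45) and E2F8 (0.44) were higher.

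The fourth question was how the lines differed under isotype, where the differences were larger. In a fit of all 12 libraries, 25 of the 49 genes (51.0%) were higher in U2932 than in TMD8, against 33.2% of the 16187 genes tested, and 8 (16.3%) were lower, against 33.7%. The median log2 fold change of U2932 over TMD8 was 0.39 for the members and -0.02 for all genes. The summed level of the 49 genes was 9116 and 9303 CPM in the isotype libraries of U2932 and 7085 and 7117 in those of TMD8. No library of U2932, with any antibody, was below 8693 CPM, and none of TMD8 was above 7219 CPM.

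CCNE2 and NPAT differed most. CCNE2 was at 77.1 and 89.7 CPM in U2932 and at 18.3 and 14.2 in TMD8, a log2 fold change of 2.36 ± 0.16 (5.14-fold, adjusted p = 2.49e-07). NPAT, the coactivator of histone genes, was at 99.6 and 120 CPM against 24.2 and 22.4, a change of 2.23 ± 0.14 (adjusted p = 1.44e-07). SLBP, the histone message binder, was at 372 and 385 CPM against 128 and 89.4 (1.80 ± 0.19). In chromatin assembly and histone supply, 4 of 6 genes were higher in U2932, as were 4 of the 6 clamp and loader genes.

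In deoxynucleotide synthesis 3 of 4 genes were higher. RRM2 was at 560 and 573 CPM against 216 and 216 (1.39 ± 0.11, adjusted p = 9.52e-07). TK1 was at 160 and 132 CPM against 61.0 and 62.5 (1.24 ± 0.12). RRM1 was higher by 0.96 ± 0.17, and TYMS was at 184 and 184 CPM against 182 and 174 (0.05 ± 0.12). TYMS was thus the 1 gene of its role whose level did not pass between the lines. RFC4 (1.70 ± 0.17) and GINS2 (1.52 ± 0.16) completed the 6 higher genes with the smallest adjusted p. GINS2 was at 170 and 171 CPM against 69.0 and 50.1.

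Of the 8 genes lower in U2932, 2 were in origin licensing and 3 in helicase activation, roles that also held 4 and 3 higher genes. The 6 with the smallest adjusted p were GINS3 (-0.83 ± 0.14), MCM5 (-0.91 ± 0.16), MCM10 (-0.58 ± 0.12), GINS1 (-0.79 ± 0.17), POLD1 (-1.21 ± 0.29) and MCM6 (-0.39 ± 0.13). MCM5 was at 375 and 313 CPM in U2932 and at 544 and 748 in TMD8. Within the ring MCM5 and MCM6 were lower, while MCM2 (0.44 ± 0.17), MCM4 (0.44 ± 0.12) and MCM7 (0.65 ± 0.12) were higher. Within GINS, GINS2 and GINS4 (0.39 ± 0.12) were higher and GINS1 and GINS3 lower. A fit of only the 4 isotype libraries called 20 members higher and 5 lower, and the share over all genes is not given. In that fit MCM2, MCM4, MCM6 and GINS4 were not called. MCM6 was not called without replicate 1 of U2932 isotype (-0.30, adjusted p = 0.160) or replicate 1 of TMD8 isotype (-0.25, adjusted p = 0.155), and MCM2 was not called without the same libraries (0.36 and 0.22). MCM5, GINS1 and GINS3 stayed lower without any 1 library. The size for POLD1 rested on replicate 2 of TMD8 isotype, without which it was -0.68. Without replicate 1 of U2932 isotype 23 members were higher and 5 lower, and without its replicate 2 these were 25 and 7. Without replicate 1 of TMD8 isotype 26 were higher and 6 lower, and without its replicate 2 these were 27 and 8. Of the 48 other replication genes 21 were higher and 9 lower, and of 30 G2 and mitosis genes 10 and 7.

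**Figure D4:**
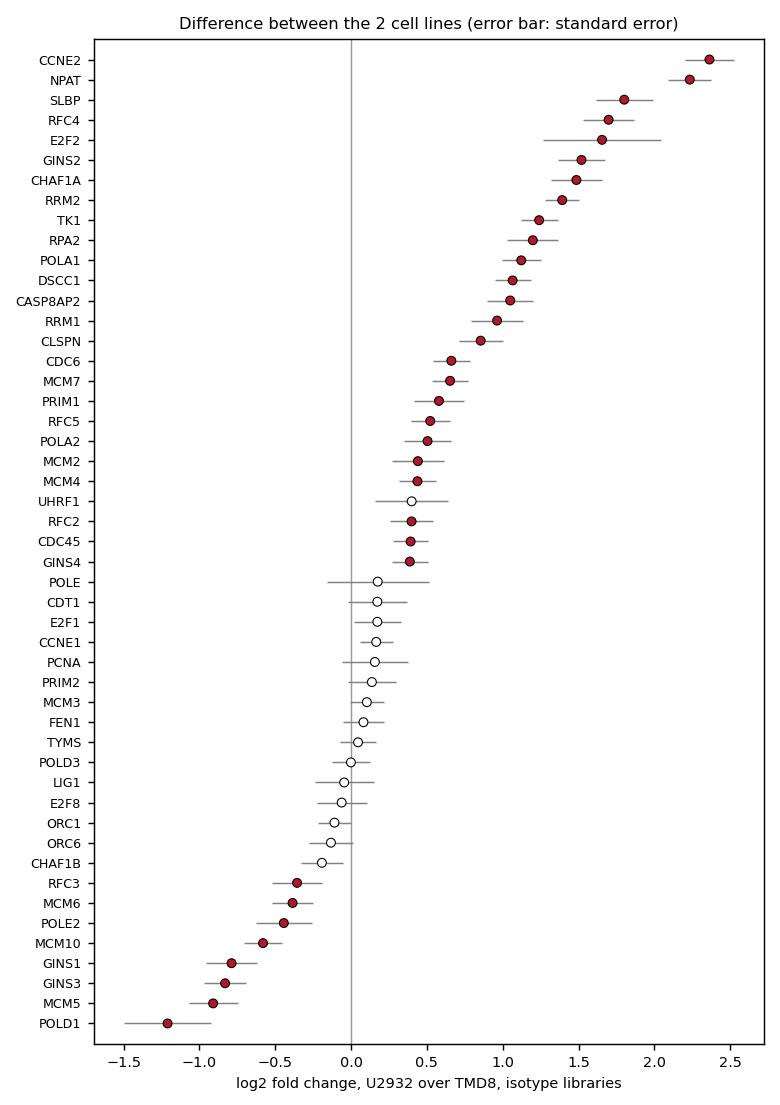
Log2 fold change of U2932 over TMD8 in the isotype libraries (x axis; error bars are standard errors) for the 49 genes, ordered by value. Filled points passed an adjusted p of 0.10 (25 higher and 8 lower in U2932), and the values run from POLD1 at -1.21 to CCNE2 at 2.36.

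The last question was whether the response to the antibodies differed between the lines. The interaction of line and antibody was called for 0 members with R and 0 with OF by edgeR, against 0.321% and 0.105% of all genes. At an unadjusted p under 0.05 there were 10 members with R and 4 with OF, and DESeq2 called 4 and 3. The shares over all genes are not given for these counts, so they are not set against a background. With the culture as a block, 5 members passed with R (10.2%) and 3 with OF (6.12%), all with a smaller or more negative change in U2932. Over all genes 3.27% with R and 1.14% with OF passed in that direction, and 6.04% and 2.23% in either direction. They were CCNE2, CCNE1, RRM2, NPAT and RFC3 with R, and CCNE2, CCNE1 and RRM2 with OF. RRM2 fell in U2932 and stood at 0.27 ± 0.15 and 0.35 ± 0.15 in TMD8, where its libraries were at 216 and 216 CPM under isotype and at 251 to 278 CPM with the antibodies. CCNE2 rose by 0.33 with R in U2932 and by 1.42 in TMD8, from a level in TMD8 that was the lower of the pair. For 8 genes the change was above 0 in all 4 comparisons with isotype, TYMS, RPA2, CCNE1, CCNE2, UHRF1, TK1, DSCC1 and GINS4. For 10 it was below 0 in all 4, PRIM1, CASP8AP2, CDC45, MCM2, MCM3, MCM7, RFC2, CLSPN, CHAF1B and FEN1, and the other 31 had mixed signs. These signs were taken whether or not a change was called, and the share over all genes was not counted. R and OF share the isotype libraries of a line, so the 4 signs are not independent.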

How the data were processed

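The authors deposited raw counts of reads per gene, not normalized, for 12 libraries of total RNA (TRIzol, NEBNext Ultra II). The submitters' processing notes name Trim Galore 0.6.0, cutadapt, FastQC, STAR 2.7.0e, DESeq2 1.26.0 and GRCh38. The annotation release and the use of strand are not given in the sources used here. Positions, transcript lengths and GC content came from GENCODE 29 (GRCh38), and the columns without a sample numbered 0.

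The statistics used edgeR 4.0.16 in R 4.3.3. Within a line, 6 libraries entered 1 quasi-likelihood fit over all genes, after TMM scaling and removal of genes with low counts by filterByExpr (minimum 10). Lines and interactions were compared in a fit of 12 libraries. Standard errors are the size of the log2 fold change divided by the square root of F. Calls required a Benjamini-Hochberg adjusted p under 0.10 over all genes, with no limit on the fold. CPM are TMM-scaled over 12 libraries, and log2 CPM used prior counts of 2. Alternatives were DESeq2 1.42.0, other scalings, filters and limits, a GC correction (lowess, span 0.3), a replicate block, and fits without each library. The fits were also run on simulated counts, which held no culture effect and no GC effect, so that run does not cover these.

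The labels used here give a replicate number. Same-numbered libraries of a line were taken to share a culture, which entered the replicate block and not the main fits. Their deviations from group means correlated at -0.04, 0.10 and -0.01 in U2932 and at 0.18, 0.18 and 0.58 in TMD8, the last for OF with isotype. P-values of fits without the block measure the spread between the 2 libraries of each group, which came from 2 cultures of 1 line. The median standard error was 0.09 in U2932 and 0.18 in TMD8 over the 49 genes. In fits with the block, the difference shared by the libraries of a culture is taken out. Depth was 15440226 to 27110612 counts per library.

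Named were up to 6 called members per direction with the smallest adjusted p, 13 genes followed in each comparison with isotype (MCM2, MCM5, CDC6, CDT1, CDC45, PCNA, RRM2, TYMS, CCNE1, CCNE2, E2F1, SLBP and CASP8AP2), members with a called interaction, and up to 3 genes per other list. Other members were named after their values were seen. The members and lists were chosen with earlier results of these data known.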

Additional observations from a re-analysis of the deposited data

Results flagged for a closer look

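With the culture as a block, the response to an antibody differed between U2932 and TMD8 for 8 gene and antibody pairs in edgeR's test of the interaction. With R, the log2 fold change in U2932 minus that in TMD8 was -1.08 ± 0.15 for CCNE2 (adjusted p = 0.00551), -0.64 for NPAT (adjusted p = 0.0645), -0.57 for RFC3 (adjusted p = 0.0741), -0.51 for RRM2 (adjusted p = 0.0727) and -0.51 for CCNE1 (adjusted p = 0.0818). With OF it was -0.80 for CCNE2 (adjusted p = 0.0300), -0.60 for RRM2 (adjusted p = 0.0677) and -0.58 for CCNE1 (adjusted p = 0.0851). In edgeR's main fit, which had no block, 0 of these passed, with adjusted p-values for CCNE2 of 0.108 with R and 0.277 with OF. CCNE2 with R was called in some alternative fits without the block, among them the GC correction and library size only. With the block and a GC correction NPAT and RFC3 were not called, while CCNE2, CCNE1 and RRM2 were called with both antibodies. Without replicate 2 of OF and of isotype in TMD8, RFC3 was not called, and CCNE2, CCNE1 and RRM2 were again called with both. Both antibodies share the isotype libraries, so the values with R and OF are not independent.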

How the results depend on the processing

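Among the genes named by the rule above, mostly those with the smallest adjusted p, 38 values were called. Called members outside that rule are not in these totals. Of the 38, 20 stayed called in every alternative fit. Over 535 alternatives 487 kept the call, 48 lost it and 0 reversed, and 60 alternatives called 1 of the 39 uncalled values. In U2932 the number of members called (15 with R, 19 with OF) was 3 and 2 with a limit of 1.5-fold and 4 and 5 with all 12 libraries in 1 fit; between the lines 21 of 33 passed that fold limit. In TMD8 the count with R (1) was 3 by DESeq2, 3 with the GC correction, 0 at an adjusted p under 0.05, 2 with no filter and 8 with 12 libraries. With OF (0) it was 2, 2, 2 with no filter, 1 with at least 10 counts in every library and 7 with 12 libraries. With the replicate block, which pairs libraries by replicate number, the counts in TMD8 were 7 with R and 6 with OF. With block and GC correction they were 8 and 10. In U2932 the block moved the counts by less than 1.5 times, to 17 and 22. Interactions (0 and 0) numbered 5 with R and 3 with OF under the block, 3 and 3 with block and GC correction and 4 and 3 by DESeq2, and with R 1 under each of GC correction, at least 10 counts, library size only and no filter. Without replicate 2 of OF and of isotype in TMD8 the counts were 15 with R, 17 with OF, 4 for R against OF, and 11 and 4 for the interactions. The share over all genes is not given for most of these counts, and the cause was not tested.

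Leaving out 1 library gave 9 to 24 called members with OF in U2932, 0 to 2 with R and 0 to 1 with OF in TMD8, and 0 to 3 for the interaction with R. The median log2 fold change of the members with library size only was -0.14 (R) and -0.13 (OF) in U2932, -0.11 and -0.12 in TMD8, 0.0323 for R against OF in TMD8, 0.52 between the lines and -0.0729 for the interaction with R. With no filter it was -0.0724 and -0.0864 in U2932, with at least 10 counts 0.43 between the lines, with the GC correction -0.0004 with OF in TMD8, and with block and GC correction 0.0418 with R and 0.0075 with OF. Without both TMD8 libraries it was -0.0266 with R, -0.0792 with OF, 0.0347 for R against OF, and -0.0807 and -0.0079 for the interactions. Leaving out 1 library, the median ran from -0.0913 to -0.0314 with R in U2932, -0.1078 to -0.0294 with OF in U2932, -0.0133 to 0.0424 for R against OF in U2932, -0.0181 to 0.1369 with R in TMD8, -0.1227 to 0.0310 with OF in TMD8, 0.0283 to 0.1722 for R against OF in TMD8, 0.3532 to 0.4281 between the lines, -0.2033 to -0.0361 for the interaction with R and -0.0643 to 0.0326 for that with OF.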
